A study of Mus musculus with 8 samples.

Results

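Basement membranes are thin sheets of matrix in which a laminin network, held to cells by integrins and dystroglycan, is joined by nidogen and the heparan sulfate proteoglycan perlecan to a network of type IV collagen. In the healthy liver the space between sinusoidal endothelium and hepatocytes holds no continuous sheet of this kind, and hepatic stellate cells, which store vitamin A there, are a source of laminin and type IV collagen. When stellate cells are activated they become matrix-producing myofibroblasts. The levels of 10 basement membrane genes were followed here across states of these cells: Col4a1, Col4a2 and Col4a5 (type IV collagen chains), Col15a1 and Col18a1 (the multiplexin collagens XV and XVIII), Lama4, Lamb1 and Lamc1 (laminin alpha, beta and gamma chains), Nid1 (nidogen-1) and Hspg2 (perlecan). They were taken from the 14162 genes of the deposited table by their symbols, and all 10 were found and tested.

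RNA sequencing was done on 8 libraries from mouse cells labelled as hepatic stellate cells, 2 in each of 4 groups. These are quiescent cells, activated cells for which no microRNA is named, activated cells that received miR-15a, and activated cells that received a control microRNA. The purpose named for the series was to find likely targets of miR-15a. C57BL/6J and SCID mice are named, but not the strain, age or sex behind each library, and the labels give neither the way cells were activated nor how the microRNAs were delivered. Whether libraries a and b of a group are separate animals or cultures is not stated either. A p-value here therefore rests on the spread inside groups of 2 libraries of unknown relation, possibly a technical one. For each gene that spread was pooled over the 4 groups and drawn toward that of other genes at a similar level.

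The deposited values are normalized scores with a total of 10193036 to 10234768 per library, so the depth is unknown and no counting interval is given. All libraries hold the same 910 distinct values. High genes therefore sit on a few shared levels, replicates can be tied, and the SE of tied genes may understate the spread. Differences are on the log2 scale of score + 5, which understates the change of low genes, and each is given with its SE and a Benjamini-Hochberg adjusted p from limma over 13150 genes (called under 0.05). Replicate libraries correlated across genes at a Pearson r of 0.986 to 0.990.

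The label of the quiescent libraries was checked against cell markers. Of 11 stellate cell markers 7 were lower and 4 higher in activated than in quiescent cells, and their sums were 14083 and 14950 in quiescent cells and between 63986 and 134471 in the other libraries, where Acta2 made up most of the sum. Among them Reln and Colec11, which mark quiescent stellate cells, had quiescent scores of 7724 and 8724 and of 1208 and 1332, and reached no more than 82 and 9 in the other 6 libraries. Acta2, smooth muscle actin, was at 43 and 51 in quiescent cells and at 58193 or 125636 in the others. Pdgfrb, Ngfr and Hand2 were the other 3 that rose, by 4.36, 1.06 and 0.68. Lrat, Lhx2 and Gfap were not analysed here. The quiescent libraries also held transcripts of other liver cells: 18 endothelial markers summed to 278777 and 208359, against 1494 and 1290 in activated cells, 12949 and 13033 under miR-15a and 1588 and 2110 with the control microRNA. The sums of 14 macrophage markers were 141436 and 162846, 2060 and 1877, 13495 and 14783, and 2648 and 2419 in the same order. Those of 10 hepatocyte markers were 15161 and 12991, 273 and 378, 1333 and 1884, and 190 and 1234. In the activated libraries 1 and 2 of the endothelial markers were at 0. The part of these other cells in the levels described here was not tested, and in such bulk libraries fewer cells of a type and less RNA per cell cannot be told apart.

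Activated and quiescent cells differed in the makeup of their basement membrane transcripts more than in one direction. Genes of the multiplexins, of the collagen IV chain Col4a5, of laminin beta-1 and of nidogen-1 were higher in activated cells, while those of laminin alpha-4, perlecan, Col4a2 and, by a small margin, laminin gamma-1 were lower. That made 5 of 10 members higher, where 45.4% of all tested genes were called higher, and 4 lower, where 34.1% were called lower. Most genes of the table differed between these groups, and the members' counts were near those shares. The median log2 difference of the members was 0.38, against 0.21 for all genes, and the range ran from -2.66 for Lama4 to 9.04 for Col4a5.

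With miR-15a, compared with the control microRNA, 6 of 10 members were lower and none was higher by limma, nor was any higher at an unadjusted p under 0.05. The lower ones were Col18a1, Col15a1, Lamb1, Nid1, Lamc1 and Col4a2. Over all tested genes 15.4% were called lower and 14.4% higher. The median log2 difference of the members was -0.43, against -0.07 for all genes. Col18a1 fell by the largest amount of the 10, 1.46 on the log2 scale, and Lama4 was the one member with a positive difference, 0.14, which did not pass.

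The other pairs of groups share libraries with these. Against activated cells with no microRNA named, 5 members were lower with miR-15a (21.6% of all genes) and 1, Lama4, was higher (16.8%). The control microRNA against the same activated libraries gave 3 members higher, Col4a2, Lama4 and Lamc1 (7.18% of all genes), and 1 lower, Col18a1 (6.61%). Against quiescent cells, miR-15a gave 4 members higher (37.1%) and 4 lower (34.4%), and the control microRNA gave 5 higher (40.7%) and 2 lower (33%). Median-ratio scaling left 3 members lower with miR-15a against activated cells, and the call of Col18a1 in the control microRNA against activated cells was lost under 14 of 16 alternative settings.

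**Figure D1:**
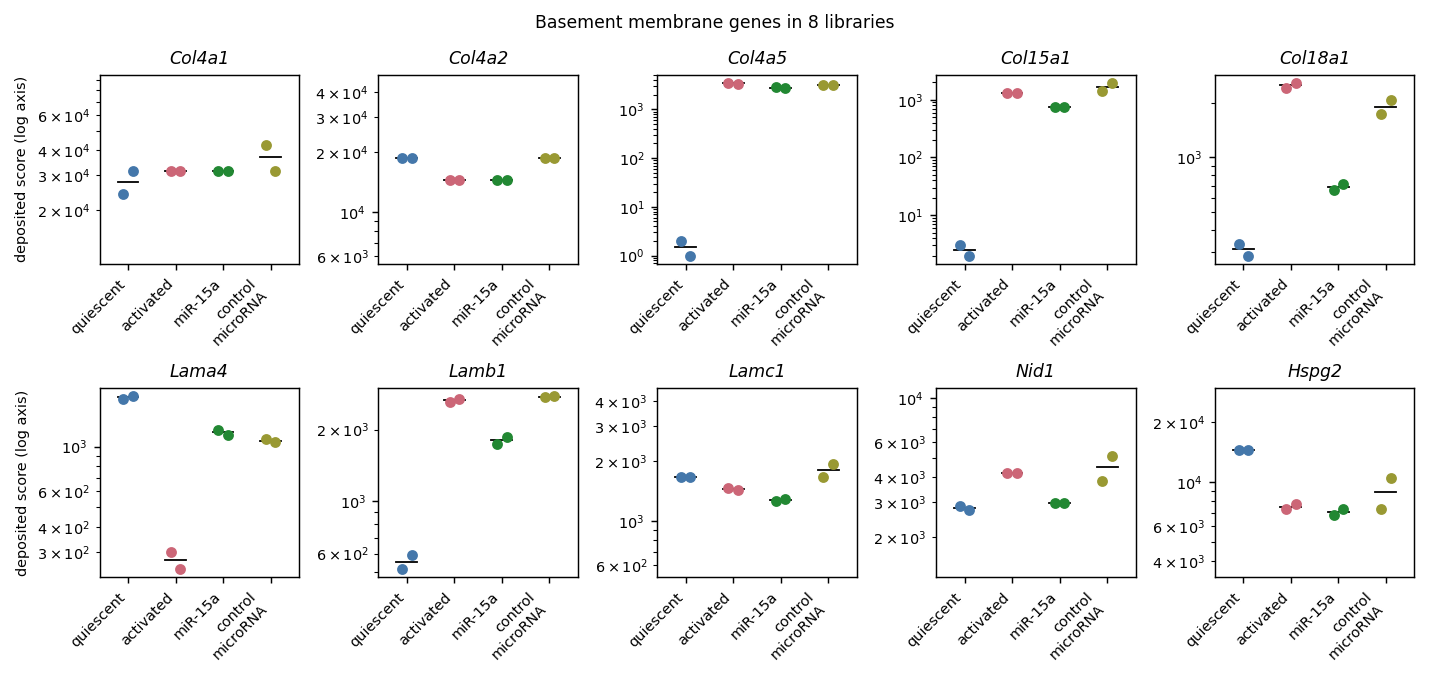
Deposited scores of the 10 basement membrane genes on log axes that differ between panels, with 1 point per library (a left, b right) and a bar at the mean of each group. Col4a5 and Col15a1 lie at 1 to 3 in the quiescent libraries and above 700 in all others, Lama4 is lowest in the activated libraries at 302 and 248, and Col18a1 with miR-15a, at 663 and 712, lies between quiescent and control microRNA libraries.

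**Figure D2:**
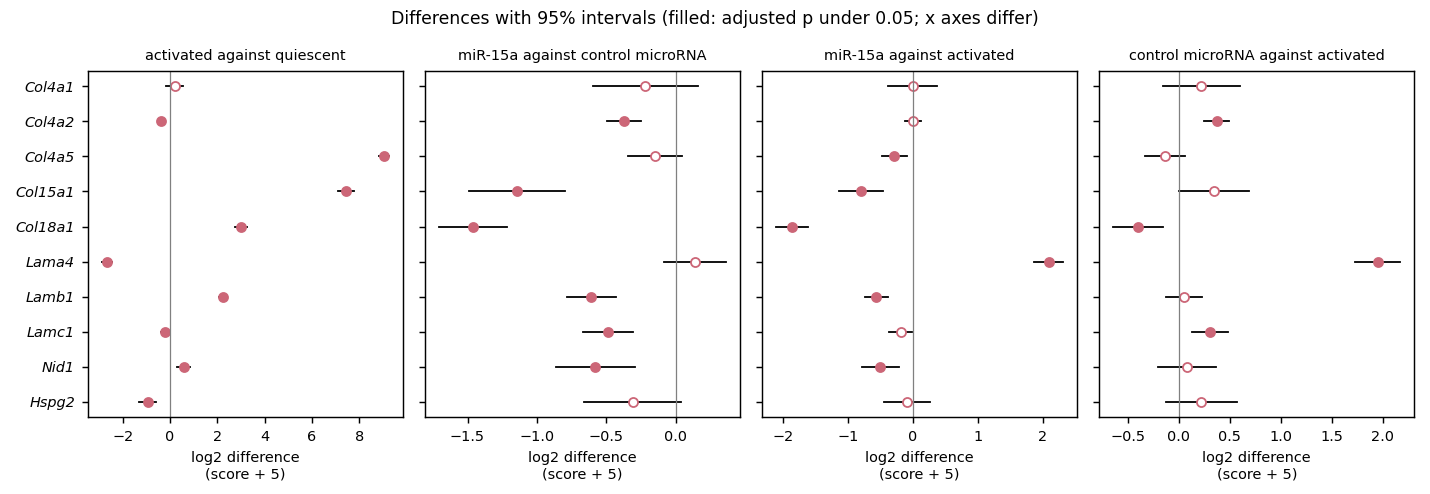
Log2 differences of the 10 genes with 95% intervals in 4 comparisons, with filled points for an adjusted p under 0.05 (limma) and x axes that differ between panels. In the panel of miR-15a against the control microRNA 6 filled points lie below 0 and none above it.

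Col4a1 and Col4a2 encode the alpha-1 and alpha-2 chains, which combine in the most common type IV collagen trimer. The genes lie head to head on chromosome 8 (GRCm38), Col4a1 (ENSMUSG00000031502.11) at 11198423 to 11312826 on the minus strand and Col4a2 (ENSMUSG00000031503.13) at 11312805 to 11449287 on the plus strand. Their RefSeq start sites (GRCm38.p6) lie within a stretch that both first exons share, which is shown because the pair is transcribed outward from it. Capitals mark the 22 shared bases on the plus strand of chr8:11312801-11312830.
Col4a1 and Col4a2 start region: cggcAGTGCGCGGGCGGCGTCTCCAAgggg

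Col4a1 was at 24105 and 31230 in quiescent cells, 31230 in both activated and both miR-15a libraries, and 42360 and 31230 with the control microRNA. These are 3 neighbouring levels of the table, and every group overlapped every other. No comparison of Col4a1 passed: the difference was 0.19 in activated against quiescent cells (95% interval -0.19 to 0.56, adjusted p = 0.312) and -0.22 with miR-15a against the control microRNA (-0.60 to 0.16, adjusted p = 0.345). In the control microRNA against quiescent cells it was 0.41 (adjusted p = 0.0513) and passed without quiescent library b (0.59, adjusted p = 0.0202) or control library b (0.63, adjusted p = 0.00613). With median-ratio scaling the activated against quiescent difference was -0.09.

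Col4a2 was at 18677 in both quiescent and both control microRNA libraries and at 14432 in both activated and both miR-15a libraries. All 8 libraries thus held 1 of 2 neighbouring levels, 0.37 apart on the log2 scale, with no spread inside a group. Col4a2 was lower by that step in activated than in quiescent cells (SE 0.05, adjusted p = 3.32e-04) and with miR-15a than with the control microRNA (adjusted p = 0.00214), and it was higher in the control microRNA than in activated cells (adjusted p = 0.00625). The difference between miR-15a and activated cells was 0 (95% interval -0.12 to 0.12). The adjusted p of a difference of 1 level rests on the spread borrowed from other genes.

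Per kb of the longest transcript, Col4a1 was above Col4a2 in all libraries. The ratio of the 2 scores per kb was 1.26 and 1.63 in quiescent cells, 2.11 in both activated and both miR-15a libraries, and 2.21 and 1.63 with the control microRNA, where the higher value came from the library with Col4a1 at 42360. Over the exons of all transcripts the mean ratios were 1.31, 1.92, 1.92 and 1.75 in the order quiescent, activated, miR-15a and control microRNA.

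Col4a5 encodes the alpha-5 chain, which is found in the type IV collagen of the kidney filter and of some other basement membranes. It lies on chromosome X at 141475385 to 141689234 (plus strand, GRCm38, ENSMUSG00000031274.16). Its scores were 2 and 1 in quiescent cells, 3448 and 3374 in activated cells, 2866 and 2732 under miR-15a and 3113 in both control microRNA libraries. The quiescent libraries stood at the bottom of the table and all others above 2700. Col4a5 rose by 9.04 on activation (SE 0.08, adjusted p = 5.76e-10), the largest difference of the 10 genes. The size of that difference depends on the pseudocount, and it ran from 7.32 to 10.4 over the alternative settings. With miR-15a it was not called against the control microRNA (-0.15, 95% interval -0.35 to 0.04, adjusted p = 0.207). Against activated cells it fell by 0.29 (adjusted p = 0.0315), a call that was lost under 7 of 16 alternatives, among them leaving out either activated library (adjusted p = 0.135 and 0.115) or either miR-15a library (0.0745 and 0.139).

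The mean share of Col4a5 among the collagen IV scores per kb was 0.00334% in quiescent cells and 6.98% in activated cells. It was 5.79% under miR-15a and 5.37% with its control. By library these were 5.92% and 5.66% against 4.86% and 5.87%, so the groups overlapped. The group means of Col4a1 lay between 58.9% and 63.9%. Col4a6, which encodes the alpha-6 chain that pairs with alpha-5, lies head to head with it, 1308 bases away on the opposite strand. Col4a6 was at 2 and 1 in quiescent cells, 14 and 10 in activated cells, 50 and 53 under miR-15a and 124 and 122 with the control microRNA and was thus highest with the control microRNA, where Col4a5 was not called different from activated cells. Both genes are X-linked, and the groups also differed in genes that show the sex of the animals. Xist, the RNA that coats the inactive X, had a score of 8724 in both quiescent libraries, 169 and 21 in activated cells, 3373 in both miR-15a libraries and 3373 and 5027 with the control microRNA. The Y-linked Ddx3y was at 44 and 40, 2606 and 2570, 1046 and 1006, and 1282 and 1268. Both genes differed between the quiescent libraries, the activated libraries and both microRNA groups. In comparisons with the quiescent or the activated libraries, a difference between animals and a difference in state or treatment therefore cannot be told apart. This holds for every gene described here. Between the 2 microRNA groups Ddx3y did not overlap, while Xist shared the level 3373. Whether these groups came from the same animals is not stated, so animals and treatment cannot be told apart there either.

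Col15a1 and Col18a1 encode multiplexins, collagens with interrupted triple helices that carry glycosaminoglycan chains, and the C-terminal part of collagen XVIII can be released as endostatin. Col15a1 (chromosome 4, 47208161 to 47313167, plus strand, ENSMUSG00000028339.17) was at 3 and 2 in quiescent cells, 1294 in both activated libraries, 748 and 740 with miR-15a and 1408 and 1936 with the control microRNA. No 2 groups overlapped, and the miR-15a libraries lay below the 4 other libraries of activated cells. Col15a1 rose by 7.44 on activation (SE 0.15, adjusted p = 9.93e-09), a size that also depends on the pseudocount and ran from 5.87 to 8.55 over the alternatives. It fell by 1.14 with miR-15a against the control microRNA (SE 0.15, adjusted p = 0.00139) and fell by 0.79 against activated cells (adjusted p = 0.00549). Without control library a, Col15a1 was called higher in the control microRNA than in activated cells (0.58, adjusted p = 0.0268), where the fit of all libraries gave 0.35 (adjusted p = 0.146).

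Col18a1 (chromosome 10, 77052178 to 77166548, minus strand, ENSMUSG00000001435.15) was at 335 and 288 in quiescent cells, 2422 and 2570 in activated cells, 663 and 712 under miR-15a and 1744 and 2063 with the control microRNA. The 4 groups lay apart, in the order quiescent, miR-15a, control microRNA and activated. Activated cells held 7.92 times the quiescent level (log2 difference 2.99, SE 0.10, adjusted p = 1.33e-07). With miR-15a Col18a1 fell by 1.46 against the control microRNA (SE 0.10, adjusted p = 7.71e-05) and fell by 1.85 against activated cells (adjusted p = 1.76e-05). It was still 1.13 above quiescent cells (adjusted p = 3.63e-05). On the log2 scale the miR-15a mean stood 62.1% of the way from activated to quiescent cells and the control microRNA mean 13.2%. The latter difference, -0.39, had an adjusted p of 0.0482, which rose to between 0.0514 and 0.206 when any 1 of the 8 libraries was left out.

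Col4a5 and Col15a1 were the members that went from the bottom of the table to 1294 or more in activated cells. RefSeq bases before their first annotated start (GRCm38.p6, plus strand) are shown for that reason. For Col4a5 they are 216 bases at chrX:141475169-141475384, with the letters CCAAT in capitals, and the gene's full window of 250 bases also holds 1 GC box (GGGCGG) that is not whole in the stretch shown. For Col15a1 they are 250 bases at chr4:47207762-47208011, which hold no GC box, no CCAAT box and no TATA box (TATAAA) on either strand.
Col4a5 upstream: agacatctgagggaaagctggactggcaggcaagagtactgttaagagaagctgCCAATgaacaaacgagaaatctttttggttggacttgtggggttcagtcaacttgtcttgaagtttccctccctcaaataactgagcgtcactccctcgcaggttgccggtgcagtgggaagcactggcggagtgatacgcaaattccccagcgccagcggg
Col15a1 upstream: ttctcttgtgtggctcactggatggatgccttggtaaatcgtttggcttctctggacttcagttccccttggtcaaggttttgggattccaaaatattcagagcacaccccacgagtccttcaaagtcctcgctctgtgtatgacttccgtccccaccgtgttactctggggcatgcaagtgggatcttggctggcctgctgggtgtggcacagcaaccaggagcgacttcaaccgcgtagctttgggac
Of 13230 promoter windows of 250 bases before a start, 53.3% held the GC box, 35.8% the CCAAT box and 8.21% the TATA box on either strand. These matches describe the letters in the windows.

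Laminins are trimers of an alpha, a beta and a gamma chain, and Lama4, Lamb1 and Lamc1 encode the chains of laminin-411, a form made by endothelial and mesenchymal cells. Lama4 (chromosome 10, 38965515 to 39110188, plus strand, ENSMUSG00000019846.11) was at 1730 and 1772 in quiescent cells, 302 and 248 in activated cells, 1215 and 1146 under miR-15a and 1094 and 1050 with the control microRNA. The activated libraries were the lowest by far and both microRNA groups lay between them and the quiescent libraries. Lama4 fell by 2.66 on activation (SE 0.09, adjusted p = 1.41e-07). Against activated cells it was higher by 2.09 with miR-15a (adjusted p = 6.54e-06) and by 1.95 with the control microRNA (adjusted p = 1.60e-04). The difference between the 2 microRNAs was 0.14 (95% interval -0.08 to 0.36, adjusted p = 0.311), so the higher level was seen with the control as well. Endothelial markers summed to 278777 and 208359 in quiescent cells and to 1494 and 1290 in activated cells, where all 18 were lower. Their sums were 1588 and 2110 with the control microRNA and 12949 and 13033 with miR-15a. Against activated cells, 3 of these 18 markers were higher and 0 lower with the control microRNA. With miR-15a 17 were higher and 0 lower. Their part in the level of Lama4 was not tested.

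Lamb1 (chromosome 12, 31265234 to 31329644, plus strand, ENSMUSG00000002900.16) was at 518 and 592 in quiescent cells, 2606 and 2700 in activated cells, 1744 and 1856 under miR-15a and 2732 and 2758 with the control microRNA. The miR-15a libraries lay between the quiescent libraries and the other activated ones. Lamb1 rose by 2.25 on activation (SE 0.07, adjusted p = 9.95e-08). It fell by 0.61 with miR-15a against the control microRNA (SE 0.07, adjusted p = 0.00114) and fell by 0.56 against activated cells (adjusted p = 0.00128). The control microRNA and activated cells differed by 0.05 (95% interval -0.13 to 0.22, adjusted p = 0.695).

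Lamc1 (chromosome 1, 153218922 to 153332786, minus strand, ENSMUSG00000026478.14) encodes the gamma chain of most laminins and varied least among the 3 laminin genes. It was at 1665 and 1676 in quiescent cells, 1474 and 1430 in activated cells, 1260 and 1294 under miR-15a and 1665 and 1936 with the control microRNA. The miR-15a libraries were the lowest, and quiescent and control microRNA libraries overlapped. With miR-15a Lamc1 fell by 0.49 against the control microRNA (SE 0.08, adjusted p = 0.00342). Against activated cells the difference was -0.18 (adjusted p = 0.0949), and it passed without control library a (adjusted p = 0.027) or b (0.0274). On activation Lamc1 fell by 0.20 (adjusted p = 0.0406), which did not pass when any 1 quiescent, activated or miR-15a library was left out (adjusted p from 0.0553 to 0.152). The increase of 0.31 in the control microRNA against activated cells (adjusted p = 0.0411) was lost without any library other than control library a (0.0631 to 0.18).

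Compared per kb of the longest transcript, the balance of the 3 chains differed between the groups. The ratio of Lamb1 to Lamc1 was 0.41 and 0.47 in quiescent cells, 2.33 and 2.49 in activated cells, 1.82 and 1.89 under miR-15a and 2.16 and 1.88 with the control microRNA. The ratio of Lama4 to Lamc1 was 1.31 and 1.33 in quiescent cells, 0.258 and 0.219 in activated cells, 1.22 and 1.12 under miR-15a and 0.828 and 0.684 with the control microRNA. Quiescent and activated libraries did not overlap in either ratio. Over the exons of all transcripts the mean of Lama4 to Lamc1 was 0.719 in quiescent cells and 0.634 with miR-15a, so whether Lama4 is above or below Lamc1 depends on the length used, and no order of these chains is given.

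Nid1 encodes nidogen-1, the glycoprotein that links laminin to type IV collagen (chromosome 13, 13437551 to 13512269, plus strand, ENSMUSG00000005397.8). It was at 2866 and 2732 in quiescent cells, 4169 in both activated libraries, 2954 in both miR-15a libraries and 3814 and 5124 with the control microRNA. The miR-15a libraries lay just above the quiescent ones and below all other activated libraries. Nid1 rose by 0.57 on activation (SE 0.12, adjusted p = 0.00308), which did not pass with median-ratio scaling (0.30, adjusted p = 0.0626). With miR-15a it fell by 0.58 against the control microRNA (SE 0.12, adjusted p = 0.0116) and fell by 0.50 against activated cells (adjusted p = 0.0168). The first of these did not pass without miR-15a library a (adjusted p = 0.0545) or b (0.0576) or with only the 2 groups compared (0.0783). The second did not pass with median-ratio scaling (-0.35, adjusted p = 0.0643) or without either activated (0.0715 and 0.0797) or either miR-15a library (0.0683 and 0.0723). The mean with miR-15a stood 86.4% of the way from activated to quiescent cells on the log2 scale, and its difference from quiescent cells was 0.08 (95% interval -0.21 to 0.36, adjusted p = 0.599). Without control library a, Nid1 was called higher in the control microRNA than in activated cells (0.30, adjusted p = 0.0216), where the fit of all libraries gave 0.08.

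Hspg2 encodes perlecan, a large heparan sulfate proteoglycan of basement membranes (chromosome 4, 137468769 to 137570630, plus strand, ENSMUSG00000028763.17). It was at 14432 in both quiescent libraries, 7290 and 7724 in activated cells, 6825 and 7290 under miR-15a and 7290 and 10507 with the control microRNA. The quiescent libraries were the highest and the 3 activated groups overlapped at 7290. Hspg2 fell by 0.94 on activation (SE 0.15, adjusted p = 6.53e-04). The difference of miR-15a from the control microRNA was -0.31 (95% interval -0.66 to 0.04, adjusted p = 0.16). Without control library a, Hspg2 was called lower with miR-15a (-0.57, adjusted p = 0.00157) and higher in the control microRNA than in activated cells (0.49, adjusted p = 0.00815). Control library b thus held the higher value of the pair for Col15a1, Col18a1, Lamb1, Lamc1, Nid1 and Hspg2, and library a for Col4a1 and Lama4.

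The members were next set beside the other chains of the same families. Of 10 other chains with values 9 were tested: 6 were higher and 2 lower in activated than in quiescent cells, and with miR-15a against the control microRNA 6 were lower and none higher. The counts of this and the following lists stand beside all-gene shares of 45.4% higher and 34.1% lower on activation and of 14.4% higher and 15.4% lower with miR-15a. Lama2, the alpha-2 chain of muscle laminin, was at 80 and 68 in quiescent cells, 392 and 388 in activated cells, 102 and 112 under miR-15a and 184 and 218 with the control microRNA. It rose by 2.33 on activation and fell by 0.88 with miR-15a (adjusted p = 1.49e-06 and 0.00261). Lama5, the alpha-5 chain of many epithelial and vascular basement membranes and taken up here because it is the other abundant alpha chain, was at 1386 and 1506, 3514 and 3996, 1010 and 1191, and 2062 and 3318 in the same order. Lama5 rose by 1.37 (adjusted p = 4.44e-04) and fell by 1.25 (adjusted p = 0.0041). Per kb, Lama5 stood at 0.43 and 0.45 times Lama4 in quiescent cells, 6.18 and 8.55 times in activated cells, 0.44 and 0.55 times under miR-15a and 1.001 and 1.68 times with the control microRNA. Over all exons these means were 0.875, 14.7, 0.991 and 2.67.

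Agrn, the heparan sulfate proteoglycan agrin, fell by 2.81 on activation (adjusted p = 1.67e-06), the same direction as Hspg2, and differed by -0.01 with miR-15a (adjusted p = 0.96). Lama3, which belongs to epithelial laminins, fell by 4.46, from 117 and 114 to 1 and 0, and its difference ran from -6.36 to -2.73 over the alternatives. Nid2, the second nidogen, was at 188 and 193 in quiescent cells, 1268 and 1208 in activated cells, 512 and 402 under miR-15a and 816 and 896 with the control microRNA. It rose by 2.67 on activation (adjusted p = 3.78e-07) and fell by 0.91 with miR-15a (adjusted p = 0.00131), both in the direction of Nid1. Lamb2, the beta-2 chain, fell by 0.81 with miR-15a (adjusted p = 7.75e-04), and Lama1, the alpha-1 chain, fell by 1.30 (adjusted p = 0.00211). Col4a3, Col4a4 and Lamb3 were not analysed here.

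**Figure D3:**
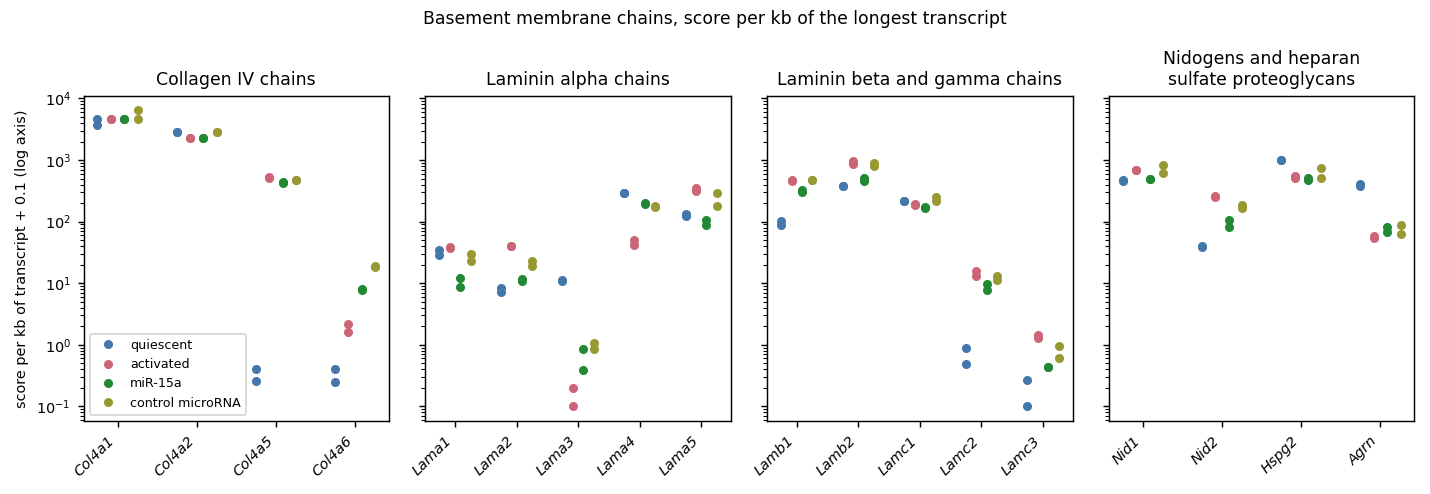
Score per kb of the longest annotated transcript, with 0.1 added, on a log axis for collagen IV chains, laminin chains, nidogens and heparan sulfate proteoglycans, with 1 point per library. Lama4 drops from 286 and 293 in quiescent to 49.95 and 41.0 in activated libraries while Lama5 reaches 309 and 351, and Col4a6 stays below 19 in every library.

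Proteins that attach to basement membranes divided in both comparisons. Of 20 tested, 12 were higher and 7 lower in activated cells, and 3 were higher and 8 lower with miR-15a. Fn1 (fibronectin) and Fbln2 (fibulin-2) rose by 7.36 and 9.23 on activation, to levels of 125636 and 58193 that were the same in all 6 libraries of activated cells. For Fn1 that level is the maximum of the table, which 10 genes share in each library, so its change is bounded by the scale and differences among those 6 libraries could not show. Smoc1, a calcium-binding protein of basement membranes, rose by 5.55 and fell by 1.15 with miR-15a (adjusted p = 1.38e-08 and 4.91e-04), where the rise ran from 4.38 to 6.16 over the alternatives. Efemp2, fibulin-4, rose by 4.65 on activation. Tinagl1, a tubulointerstitial nephritis antigen-like protein, rose by 0.64 with miR-15a (adjusted p = 9.38e-04), from 658 and 712 to 1014 and 1124. Npnt, nephronectin, fell by 0.98 with miR-15a (adjusted p = 0.0027), and Smoc2 fell by 1.20 (adjusted p = 9.94e-04).

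A list drawn up around receptors of laminin and type IV collagen held 21 genes, some of which bind other matrix proteins. Of the 21, 13 were higher and 5 lower in activated cells, and 2 were higher and 9 lower with miR-15a. Itga1, the integrin alpha-1 chain that binds type IV collagen, fell by 1.02 with miR-15a (adjusted p = 7.95e-05), from 1308 and 1294 to 606 and 678. Itga11, the integrin alpha-11 chain, rose by 8.67 on activation (adjusted p = 1.73e-09) and fell by 1.41 with miR-15a (adjusted p = 9.19e-05). Its ligands are fibrillar collagens, and its rise ran from 7.26 to 9.52 over the alternatives. Ddr2, a collagen receptor kinase, rose by 3.55 and fell by 0.61. Sdc1 and Sdc2, syndecans that bind matrix through heparan sulfate, rose by 3.54 and 4.30 on activation. Rpsa, a ribosomal protein also described as a laminin receptor, rose by 0.56 with miR-15a (adjusted p = 4.29e-04).

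Genes for folding, modifying and exporting these chains were higher on activation in 19 of 25 cases and lower in 4, beside 45.4% and 34.1% of all genes. With miR-15a 10 were lower and 1 was higher, beside 15.4% and 14.4%. Plod2, a lysyl hydroxylase of collagens, was at 175 and 176 in quiescent cells, 10504 and 11352 in activated cells, 3602 in both miR-15a libraries and 8202 and 7286 with the control microRNA. It rose by 5.92 and fell by 1.10 (adjusted p = 1.73e-09 and 4.75e-05). Loxl1, Loxl2 and Loxl3, which cross-link collagen or elastin, rose by 7.64, 3.92 and 4.91 on activation, and Loxl2, which acts on the type IV collagen network, fell by 0.51 with miR-15a. Mia3 (TANGO1), which loads large collagens into secretory carriers, fell by 0.47 with miR-15a (adjusted p = 5.73e-04). Sec23a, a coat protein of these carriers, fell by 0.29 (adjusted p = 0.0135), which did not pass without miR-15a library b (-0.24, adjusted p = 0.0665).

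Of 20 tested proteases and inhibitors that act on basement membranes, 9 were higher and 11 lower in activated cells, where 45.4% and 34.1% of all genes were. With miR-15a 6 were higher and 5 lower, where 14.4% and 15.4% of all genes were. Timp2, an inhibitor of metalloproteinases, rose by 4.28 on activation. Adamts1, a secreted metalloproteinase, fell by 3.16, and Ctsb (cathepsin B), at the maximum of the table in both quiescent libraries, fell by 4.35. With miR-15a Ctsb rose by 1.41 and Ctss (cathepsin S), which macrophages also express, by 3.17 (adjusted p = 1.49e-05 and 4.32e-06), and Hpse (heparanase), which cuts the heparan sulfate of perlecan, rose by 1.30 (adjusted p = 8.74e-04; 0.85 to 1.53 over the alternatives). All 14 macrophage markers also rose in that comparison, and their part in the cathepsins was not tested. Mmp2, gelatinase A, fell by 0.90 with miR-15a (adjusted p = 8.02e-04).

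Fibrillar and related interstitial collagens were listed for contrast. On activation 13 of 14 rose and 1 fell, with a median log2 difference of 4.86 against 0.38 for the basement membrane genes. With miR-15a 10 of 14 fell and none rose, with a median of -0.76 against -0.43. Col1a2 rose by 7.17, to the maximum of the table in all 6 libraries of activated cells, Col5a2 by 6.59 and Col8a1 by 8.85 on activation. Col12a1 rose by 9.55 and fell by 1.48 with miR-15a, and Col5a3 fell by 1.21, Col6a2 fell by 1.36 and Col14a1 fell by 1.17. No test of the lists against each other was made.

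**Figure D4:**
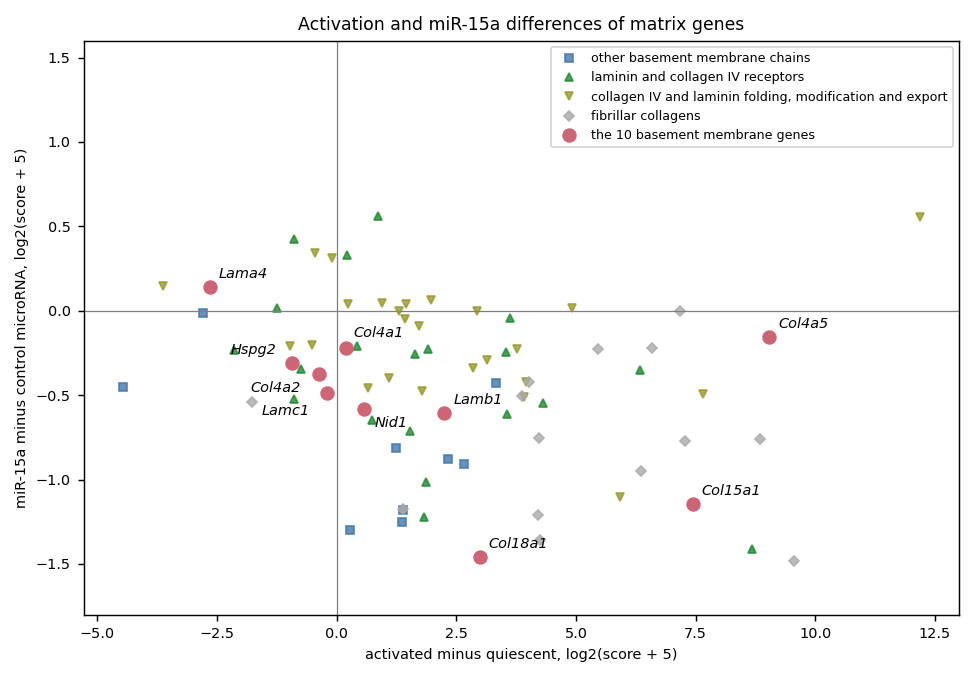
Log2 difference of activated against quiescent cells (x) and of miR-15a against the control microRNA (y) for the 10 basement membrane genes (labelled) and 4 lists of related genes, with 1 point per gene; the 2 comparisons share no library. Col15a1 and Col18a1 lie at the lower right, Lama4 at the upper left, and 9 of the 10 labelled points lie below 0 on the y axis.

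The members were searched for matches to miR-15a, since the series addressed its targets. The mature mouse sequence (RefSeq, GRCm38.p6, chr14:61632075-61632096, minus strand) is given with its seed, positions 2 to 8, in capitals.
mmu-miR-15a-5p: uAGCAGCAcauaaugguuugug
The bases complementary to the seed, TGCTGCT, were sought on the coding strand of each gene's longest 3′ UTR in GENCODE M21 (GRCm38). Lamc1 alone of the 10 members held a match (10%), against 2994 of 12533 genes with an annotated 3′ UTR (23.9%). The 3′ UTRs of the members had a median length of 993.5 bases, against 1166 for all genes. The Lamc1 match lies at chr1:153221370-153221376 in exon 28 of 28, at position 97 of a 3′ UTR of 2551 bases, and is shown with its flanks, the match in capitals.
Lamc1 match: ccccacttctcTGCTGCTctccatcactg
Lamc1 fell by 0.49 with miR-15a against the control microRNA. Col18a1, Col15a1, Lamb1 and Nid1 were also called lower, and their longest 3′ UTRs held neither this match nor the shorter one. Another coding transcript of Lamc1, with a 3′ UTR of 1134 bases, held no match to TGCTGCT. Whether the match, or the lack of one, plays a part in the level of any member was not tested.

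The shorter match of 6 bases, GCTGCT, complementary to positions 2 to 7, was present, with or without the seventh base, in 5 of 10 members. Over all genes with an annotated 3′ UTR 44.0% held it. Of those 5 genes Col4a2 and Lamc1 were called lower with miR-15a, and Col4a1, Lama4 and Hspg2 were not called. One match without the seventh base is shown for each of the 5 genes with its flanks, the 6 bases in capitals. They are shown because the 5 genes include members with and without a call. The part of these matches in the levels was not tested. The base after the match was A in Hspg2 only.
Col4a1, chr8:11199238-11199243, minus strand: ggtactatgcaGCTGCTtttgtggaagt
Col4a2, chr8:11448824-11448829, plus strand: cctggcaacagGCTGCTcaccttcctgc
Lama4, chr10:39110046-39110051, plus strand: acagctgcaagGCTGCTgaagacagctc
Lamc1, chr1:153219165-153219170, minus strand: tggacagaatgGCTGCTgtagaatgcgg
Hspg2, chr4:137569779-137569784, plus strand: ggccacgcttcGCTGCTaccaccctggg

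For each member the genes with the most similar course were the tested genes with the highest Pearson r of log2(score + 5) over the 8 libraries. These r values mostly reflect the steps between the 4 groups, whose libraries are shared. For Col4a5 they were Fkbp11, Serpinf1 and Fn1 (r of 0.99977, 0.99968 and 0.99963) and for Col15a1 Smpd3, Cpeb1 and Mrc2 (0.99951, 0.99946 and 0.99929). Col18a1 was most like Ankle1, Jag1 and Notch3 (0.996, 0.995 and 0.995), Lamb1 like Arhgef17, Kntc1 and Adcy6 (0.999, 0.999 and 0.998) and Nid1 like Ttc28, Mast4 and Nav2 (0.996, 0.989 and 0.983). Lama4 was most like Kat2a, Olfr920 and Vmn2r29 (0.991, 0.991 and 0.988), Lamc1 like Tmed10, Uhrf1bp1 and Pcdhga6 (0.985, 0.983 and 0.982) and Hspg2 like Ecm1, Atp11b and Ptpn23 (0.997, 0.996 and 0.994). For Col4a2 they were Atg13, Zfp706 and C1ra (0.983, 0.979 and 0.971). Col4a1, with its 3 levels, had the lowest values, with Hmgb3, Mterfd3 and Atad5 at 0.922, 0.921 and 0.897.

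Among the members themselves the courses of Col4a5, Col15a1 and Lamb1 were the closest, with r of 0.993, 0.969 and 0.988 for their 3 pairs. Col18a1 and Nid1 had r = 0.904. Col4a1 and Col4a2, which share a start region, had r = 0.04, and the 3 chains of laminin-411 had r of -0.65 (Lama4 and Lamb1), 0.26 (Lama4 and Lamc1) and -0.15 (Lamb1 and Lamc1). These values describe 8 libraries in 4 groups, and no test was made on them.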

How the data were processed

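Total RNA was extracted with TRIzol, libraries were made with a TruSeq kit and sequenced with a NextSeq as single-end reads (per the labels' protocols). The submitters' processing notes name STAR, Subread, featureCounts and mm10, with no versions or roles. The deposited table was treated as a normalized score: all 8 libraries hold the same 910 whole numbers, with 10 genes tied at the maximum of 125636 in each. No source used here records that step. The members and gene lists were chosen with earlier results of these data known.

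Differences were fitted with limma 3.58.1 (R 4.3.3) on log2(score + 5), for genes at 10 or more in at least 2 libraries (13150 of 14162), as 4 group means over 8 libraries with a variance prior that follows the mean level, 4 residual degrees of freedom and Benjamini-Hochberg adjustment. Tests are two-sided. The procedure was tested on simulated data. Genes named besides the members were the 4 of each list with the smallest p in activated against quiescent cells and in miR-15a against the control microRNA, and the 3 most similar genes per member. One gene that this rule names is not reported here. Col4a6, Lama5, the marker genes Reln, Colec11, Acta2, Pdgfrb, Ngfr and Hand2 and the sex-linked genes were named after their values were seen. Levels were compared between genes per kb of the longest GENCODE M21 transcript, with some mean ratios also given over the exons of all transcripts. Sums of markers were made from scores without a length correction. Promoter windows come from RefSeq (GRCm38.p6), whose table matched 8 of the 10 members. Alternatives were pseudocounts of 1 and 20, no filter, a filter at 50, median-ratio scaling, a constant variance prior, only the 2 groups compared, a replicate block and each library left out.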

Additional observations from a re-analysis of the deposited data

How the results depend on the processing

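Of 960 alternative values for the 60 member differences, 900 kept the call or the lack of one, 47 lost the call and 13 gained one. No called value turned sign. Uncalled values among the 900 could turn sign, as that of Col4a1 in activated against quiescent cells did (0.19, and -0.09 with median-ratio scaling). Members lower with miR-15a against activated cells numbered 5, and 3 with median-ratio scaling. Leaving out 1 library gave 3 to 6, and 3 without any activated or miR-15a library. Members higher in the control microRNA against activated cells numbered 3, and leaving out 1 library gave 2 to 6, the 6 without control library a. The 1 member lower there, Col18a1, became 0 with a pseudocount of 1, no filter, median-ratio scaling, a constant variance prior, only the 2 groups compared, the replicate block and every library left out (0 to 0). Libraries of the same letter showed little shared deviation: the a minus b differences of 2 groups correlated across genes at -0.0666 to 0.0872. That does not settle whether the letters pair the libraries by animal, batch or culture. With the replicate block 6 members stayed lower with miR-15a against the control microRNA. Median-ratio scaling shifted the median of all genes by -0.267 in activated against quiescent cells, 0.136 in miR-15a against activated cells, -0.119 in miR-15a and -0.17 in the control microRNA against quiescent cells. It moved the share of higher calls from 57.1% to 46.9% in activated against quiescent cells, from 48.3% to 59.3% in miR-15a against the control microRNA, from 43.7% to 65.4% in miR-15a and from 52.1% to 73.5% in the control microRNA against activated cells. Over all genes the calls of the control microRNA against activated cells fell from 1813 to 436 with only the 2 groups compared and to 503 to 682 without activated library a or b or control library b. Those of miR-15a against the control microRNA fell from 3926 to 2296 with only these groups, 2381 without miR-15a library b and 2385 without control library b, and those of miR-15a against activated cells from 5045 to 2655 without activated library b. With miR-15a against the control microRNA, lower calls among folding and export genes fell from 10 to 4 with only the 2 groups compared and to between 4 and 6 without any miR-15a or control library. Lower calls among associated proteins fell from 8 to 5 without either miR-15a library, and among proteases from 5 to 2 without miR-15a library a and to 3 without either control library. Depth is unknown, and shared score levels limit what can be seen for Col4a1, Col4a2 and Hspg2.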
